A study of Apis mellifera with 9 samples.

Results

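In larval honey bees (Apis mellifera), a set of 98 genes, of 15314 listed features, was picked for its mean levels. These lay apart from control already at the lower of 2 quercetin doses and were about the same at the higher one. The set comprised 82 genes that were higher and 16 that were lower on quercetin. Members were chosen from their own values in CPM, a gene's reads divided by all reads counted on features in that library and multiplied by 1000000. A member had a mean of at least 5 CPM over the 9 libraries, all 6 quercetin libraries on one side of all 3 control libraries, a 0.1 mM mean at least 25% above or 20% below the control mean, and a 0.25 mM mean no more than 13% below and 15% above the 0.1 mM mean. This last range is called the window. The levels, ratios and separations given below are therefore descriptions of how the genes were picked, and none of them is a test of the pattern.

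The libraries came from larvae of Apis mellifera taken on hatching from colonies of a research apiary and reared in well plates. The diet without quercetin was control, and the others contained 0.1 mM or 0.25 mM quercetin. All 3 diets shared the same base of 50% royal jelly and 50% aqueous sugar and yeast extract, and were fed for 3 days to 10 to 12 larvae in each of 3 replications. The labels call the source whole larvae but describe extraction of RNA from midguts, and markers could not settle which, because the table gives only GB identifiers and 0 of them matched the 12398 genes of the reference table. For the same reason no member carries a gene name, function or sequence here. The labels call the replications independent and do not say whether they came from separate colonies.

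Quercetin is a flavonol of pollen, nectar and honey. In honey bees, cytochrome P450 enzymes of the CYP6AS group are known to metabolise it, and plant phenolics in the food are known to raise transcripts of detoxification enzymes. A transcript that answers a compound can reach a ceiling when the sensor or the promoter is saturated, and a dose series shows such a ceiling as a step at the low dose with no further step above it. These are general statements and were not examined here.

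Libraries held between 34456449 and 42874091 reads on features. The 3 columns of the 0.25 mM diet carry 1 shared heading and are called libraries a, b and c in table order, as names only. Library a lay closer to the 0.1 mM libraries than b and c did: 77.5% of the 8158 rows with a mean of at least 5 CPM had a value in library a within the window of the 0.1 mM mean, against 37.8% in b and 40.5% in c. The main results for the 0.25 mM diet are also given without library a.

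The choice of members began with the separation of the libraries. Of the 8158 rows, 510 had all 6 quercetin libraries above all controls, which is 6.25%, and 1250 had all 6 below, which is 15.3%. The ratio at 0.1 mM was met by 189 of the 510 and by 88 of the 1250. Of those 189 higher genes, 82 stayed within the window between the doses. Another 99 were higher again at 0.25 mM by more than 15%, and 8 were lower there than at 0.1 mM by more than 13%. Of those 88 lower genes, 16 stayed within the window and 72 were lower again at 0.25 mM by more than 13%. The members were thus 43.4% of the higher genes and 18.2% of the lower genes that had made the step at 0.1 mM. Of all 8158 rows, 50.5% lay within the window, so the genes with a step did not lie within it more often than rows in general. The values next to the limits were close together: the ratios at 0.1 mM nearest the limit were 1.251 inside and 1.248 outside for higher genes, and 0.7971 inside and 0.8037 outside for lower genes. Between the doses they were 1.148 inside and 1.153 outside at the upper limit for higher genes, and 0.8744 inside and 0.8698 outside at the lower limit for lower genes.

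**Figure D1:**
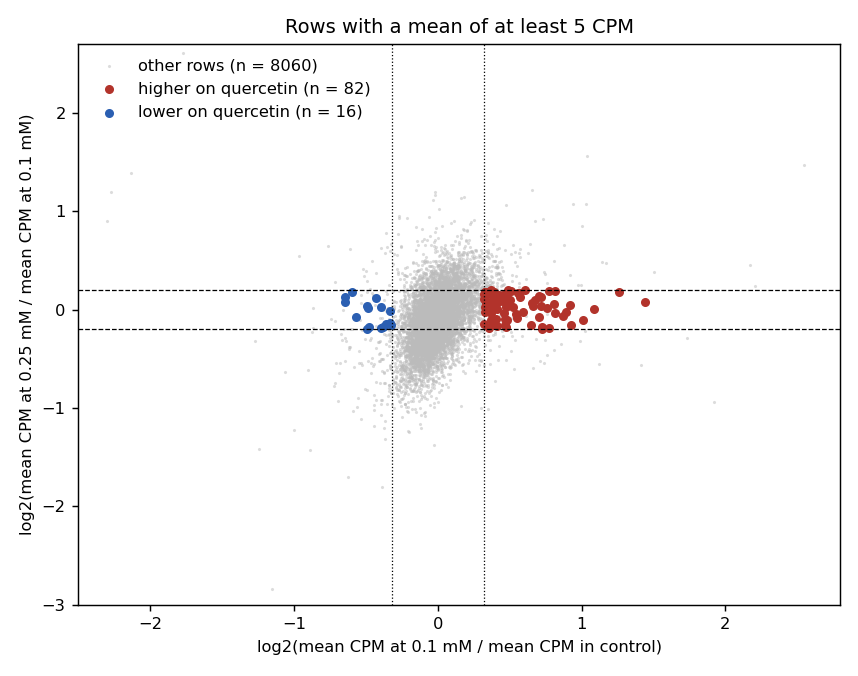
Each point is a row with a mean of at least 5 CPM, placed by the log2 ratio of the 0.1 mM mean to the control mean (x axis) and of the 0.25 mM mean to the 0.1 mM mean (y axis). Dotted lines mark the limits on the first ratio and dashed lines those on the second. The 82 higher (red) and 16 lower (blue) members lie in short strips. The strips also hold other rows (grey), in which the quercetin and control libraries were not fully separated.

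The 82 higher genes were mostly small steps. Their ratio of the 0.1 mM mean to the control mean ran from 1.251 to 2.72 with a median of 1.39, and the ratio of the 0.25 mM mean to the control mean ran from 1.12 to 2.87 with a median of 1.45. All 8158 rows had medians of 0.986 and 0.926 for these ratios. The increase at 0.25 mM over control was 1.12 times the increase at 0.1 mM in the median gene, with a range of 0.433 to 1.64, beside a dose ratio of 2.5. The limits of the choice bound this multiple, so its place below the dose ratio was built in. The 16 lower genes had ratios of 0.638 to 0.797 at 0.1 mM, median 0.729, and of 0.622 to 0.802 at 0.25 mM, median 0.709. Their decrease at 0.25 mM was 1.07 times that at 0.1 mM in the median gene, from 0.747 to 1.41.

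**Figure D2:**
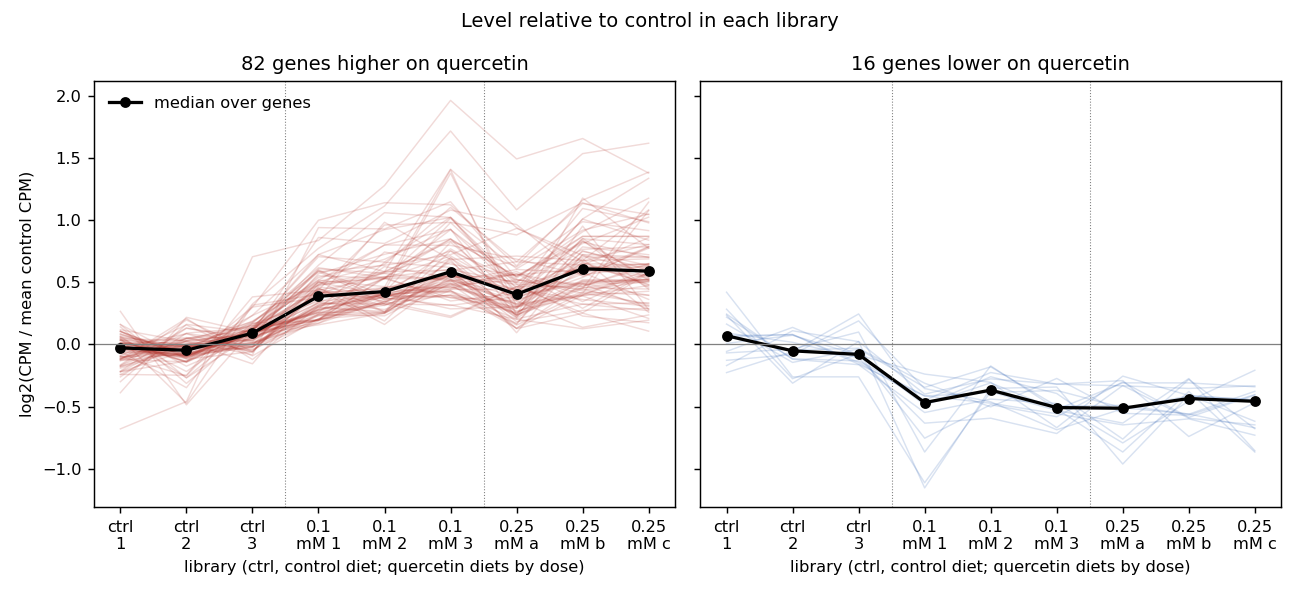
Level of every member in every library as log2 of CPM over the mean control CPM; each thin line joins the values of 1 gene and black points are medians over genes. Median levels of the 82 higher genes were 1.31, 1.35 and 1.5 times control in the 0.1 mM libraries 1, 2 and 3, and 1.32, 1.53 and 1.51 times control in libraries a, b and c; those of the 16 lower genes lay between 0.70 and 0.775 times control in all 6.

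Both lists covered a wide range of abundance. The higher genes averaged 5.15 to 2939 CPM with a median of 45.1, against a median of 38.3 over all 8158 rows. At least 100 CPM was reached by 30 of the 82, or 36.6%, beside 20.4% of all rows. At least 10 CPM was reached by 67 of the 82, or 81.7%, beside 88.4% of all rows. The lower genes averaged 5.35 to 178 CPM with a median of 14.1. Together the higher genes took 0.992% ± 0.0760 of feature counts on the control diet, 1.46% ± 0.107 with 0.1 mM and 1.47% ± 0.0849 with 0.25 mM quercetin (SD, n = 3 each). The lower genes took 0.0878% ± 0.00271, 0.0647% ± 0.00472 and 0.0637% ± 0.00103 in the same order of diets. The spread between the 3 libraries of a diet had a median coefficient of variation of 8.01%, 10.1% and 11.3% in the higher genes at 0, 0.1 and 0.25 mM, beside 5.39%, 5.83% and 10.6% in all rows. In the lower genes it was 10.4%, 8.30% and 8.38%. More cells of a type and more RNA per cell cannot be told apart in such bulk samples.

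GB48146-RA had the largest ratio at 0.1 mM. Its values were 6.43, 7.49 and 16.8 CPM in control, 18.4, 25 and 40.2 CPM at 0.1 mM and 29.0, 32.5 and 26.8 CPM at 0.25 mM. The highest control library lay just under the lowest library of 0.1 mM. Its log2 fold change was 1.43 ± 0.36 at 0.1 mM and 1.59 ± 0.36 at 0.25 mM (± SE, edgeR), and without control 3 its value at 0.25 mM became 2.16. GB40021-RA was the most abundant member. It had 1959, 2202 and 2681 CPM in control, 3179, 3323 and 3467 CPM at 0.1 mM, and 3221, 3190 and 3229 CPM at 0.25 mM. The 3 libraries of 0.25 mM, library a included, were nearly equal in this gene, and all lay within the range of the 0.1 mM libraries. Its log2 difference between the doses was 0.02, with a 95% interval of -0.25 to 0.30.

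GB42220-RA, GB52318-RA and GB49887-RA were the other higher members with a ratio of at least 2 at 0.1 mM, and they are named after their values were seen. GB42220-RA averaged 46.2 ± 10.9 CPM on the control diet, 111 ± 37.7 CPM with 0.1 mM and 125 ± 23.6 CPM with 0.25 mM (SD, n = 3 each). GB52318-RA averaged 15.6 ± 3.17, 33.2 ± 1.75 and 33.3 ± 8.43 CPM in the same order. In GB52318-RA library a stood at 24.2 CPM, below all 3 libraries of 0.1 mM, while b and c stood at 34.9 and 40.8 CPM.

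Neighbouring identifiers were the only shared property that the files allow to be examined beside the values. Of the 82 higher members, 7 had a member with the adjacent number and 20 had a member within 5 numbers, and 1 run comprised 3 genes, GB49885-RA, GB49886-RA and GB49887-RA. The shares were 8.54% and 24.4%. Among all 510 rows with quercetin above control, 13.9% had such an adjacent row and 32.9% had one within 5 numbers, shares taken in a longer list. GB49885-RA had 372, 434 and 452 CPM in control, 652, 874 and 851 CPM at 0.1 mM and 556, 844 and 1059 CPM at 0.25 mM. GB49886-RA had 133, 153 and 146 CPM in control, 200, 214 and 205 CPM at 0.1 mM and 170, 243 and 218 CPM at 0.25 mM. In GB49887-RA the values were 69.4, 68.6 and 63.4 CPM, then 129, 128 and 149 CPM, then 97.3, 126 and 152 CPM. All 3 genes had their lowest quercetin value in library a, below every 0.1 mM library. The ratio of the 0.25 mM mean to the 0.1 mM mean was 1.03, 1.02 and 0.927 in GB49885-RA, GB49886-RA and GB49887-RA with all libraries, and 1.2, 1.12 and 1.03 with b and c alone, so that GB49885-RA left the window without library a and the others did not. The table lists 3.03% to 3.58% of reads per library apart as ambiguous and none as aligned to several places, so how reads from similar neighbours were placed is unknown and the 3 may not be independent.

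Among the lower genes, GB49385-RA had the largest change, with 17.7, 16.8 and 15.4 CPM in control, 10.7, 11 and 10.1 CPM at 0.1 mM and 13.2, 11 and 10.6 CPM at 0.25 mM. Its log2 fold change was -0.64 ± 0.11 at 0.1 mM and -0.44 ± 0.11 at 0.25 mM (± SE, edgeR). The most abundant lower member was GB51345-RA, with 202, 231 and 198 CPM in control, 178, 170 and 132 CPM at 0.1 mM and 176, 158 and 154 CPM at 0.25 mM. GB43513-RA and GB46297-RA were the others with a change of at least 1.5-fold at 0.1 mM, and were named after their values were seen. GB43513-RA rested on a narrow gap, since its lowest controls stood at 10.6 CPM and its library b at 10.5 CPM. GB46297-RA averaged 13.8 ± 2.73 CPM on the control diet, 9.09 ± 0.85 CPM with 0.1 mM and 10.3 ± 1.0 CPM with 0.25 mM (SD, n = 3 each). One pair of lower members, GB49440-RA and GB49441-RA, had consecutive identifiers, which makes 12.5% of the 16, beside 27.0% of the 1250 rows with quercetin below control. Adjacent numbers are more frequent in a longer list, so these shares are not directly comparable. GB49440-RA averaged 6.97 ± 0.854, 4.95 ± 0.567 and 5.08 ± 0.182 CPM, and GB49441-RA 6.39 ± 0.705, 5.07 ± 0.558 and 4.6 ± 0.299 CPM, in order of dose.

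**Figure D3:**
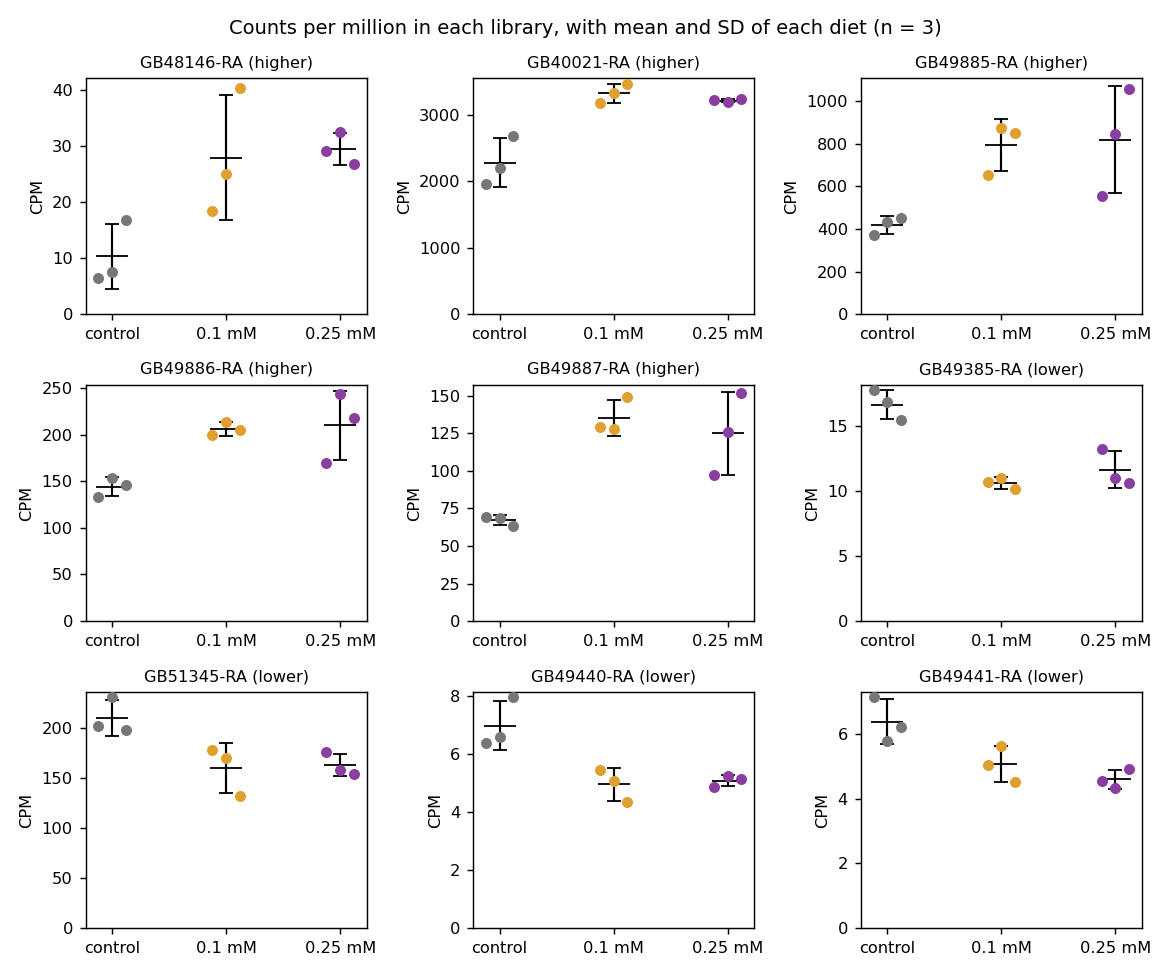
CPM in each library (points) for 9 members chosen for the largest change, the highest mean or consecutive identifiers; bars are the mean and SD of the 3 libraries of a diet. In each panel the 6 quercetin points lie on one side of the 3 control points, as the choice required, and in GB49885-RA, GB49886-RA and GB49887-RA the lowest quercetin point belongs to library a of the 0.25 mM diet.

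The genes were fitted with all others in edgeR's quasi-likelihood model, which used all 9 libraries and 11508 genes. All 98 members were among the genes tested. At 0.1 mM against control, 4 of the 82 higher members passed a Benjamini-Hochberg adjusted p of 0.05, beside 0.0695% of all genes called higher. They were GB44058-RA, GB48456-RA, GB49887-RA and GB50265-RA, with log2 fold changes of 0.90 ± 0.11, 0.65 ± 0.07, 1.01 ± 0.13 and 0.73 ± 0.10 (± SE, adjusted p = 0.0436 each). GB44058-RA had 50.3, 48.3 and 56.4 CPM in control, 85.4, 98.1 and 105 CPM at 0.1 mM and 78.9, 97.8 and 107 CPM at 0.25 mM. GB50265-RA had 148, 158 and 152 CPM, then 227, 253 and 276 CPM, then 189, 240 and 239 CPM, with library a below every 0.1 mM library. In GB48456-RA, with 29.3, 32.9 and 33.3 CPM in control, 48.5, 47.3 and 53.6 CPM at 0.1 mM and 45.6, 43 and 45.3 CPM at 0.25 mM, all libraries of the higher dose lay below all of the lower dose. None of the 16 lower members was called there, where 0% of all genes were called lower. At an unadjusted p under 0.05, all 82 and all 16 passed, beside 9.01% of all genes in either direction. DESeq2 called 53 and 5, beside 1.16% and 0.285% of all genes called higher and lower. The choice of members used this contrast, so nothing is read from these counts. The count of 4 was 0 when control 1, 2 or 3, 0.1 mM library 2 or 3, or library b was left out. In those settings 0% of all genes were called. The count was 1 without 0.1 mM library 1 or without library c, where 0.0172% and 0.0173% of all genes were called. The count became 44 without library a, 41 higher and 3 lower, beside 0.880% and 0.0862% of all genes.

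At 0.25 mM against control, 80 of the 82 higher and 10 of the 16 lower members passed in edgeR, beside 17.1% and 18.5% of all genes called higher and lower, 35.6% in all. Separation from control at this dose was again part of the choice. Without library a, 82 and 9 passed, beside 27.4% and 28.6% of all genes. The count of 90 became 60 without control 2, where 12.1% of all genes were called, and 61 without library c, where 9.61% were. Both comparisons used the same 3 control libraries. Log2 fold changes of the higher genes had a median of 0.48 (0.33 to 1.43) at 0.1 mM and of 0.61 (0.24 to 1.59) at 0.25 mM, and those of the lower genes a median of -0.45 (-0.64 to -0.32) and of -0.42 (-0.61 to -0.24). Without library a the medians at 0.25 mM were 0.69 and -0.40.

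Between the doses, the precision of the data sets how flat a gene can be said to be. No member passed at 0.25 mM against 0.1 mM in edgeR, where 0% of all genes were called, and 9 of the 82 higher and 1 of the 16 lower members had an unadjusted p under 0.05, beside 34.1% of all genes. The choice bounded this ratio, so a low share among members was built in. DESeq2 called GB51500-RA and GB53306-RA, both higher at 0.25 mM, beside 9.08% of all genes called higher and 10.3% called lower. The 95% interval of the log2 difference reached a median of 0.28 to either side in the higher genes and 0.33 in the lower genes. It lay within 1.5-fold in either direction in 68 of the 82 and 14 of the 16, or 82.9% and 87.5%, beside 53.2% of all genes. Without library a, with intervals on 5 degrees of freedom, it did so in 55 and 13, beside 47.1% of all genes. It lay between 20% lower and 25% higher in 20 of the 82 and 2 of the 16, beside 21.3% of all genes, so for the remaining members a difference of that size between the doses lay inside the interval. Without library a these counts were 11 and 3. The choice held the middle of each member's interval near 0, so a higher share within 1.5-fold was built in. All genes of the fit also include genes under 5 CPM, a minimum that every member met. Of the higher genes, 75 had ranges at the 2 doses that overlapped, 4 had all 0.25 mM libraries above all 0.1 mM libraries and 3 had them all below, beside 60.2%, 4.63% and 35.2% of the 8158 rows. Of the lower genes, 14 overlapped, and GB44804-RA and GB47964-RA had all 3 libraries of 0.25 mM below all 3 of 0.1 mM. The choice bounded the means of the doses, so part of the overlap in both lists was built in as well.

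**Figure D4:**
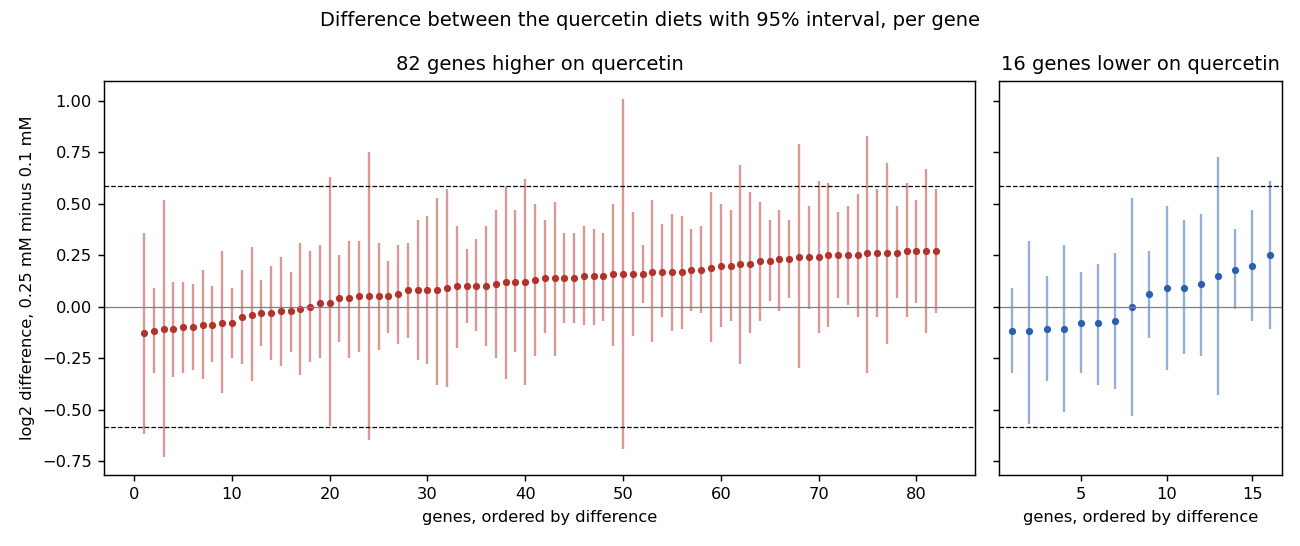
Log2 difference between 0.25 mM and 0.1 mM for each member (point) with its 95% interval (line) from edgeR, in order of the difference; dashed lines mark a 1.5-fold difference. Intervals lie within the dashed lines in 68 of 82 higher and 14 of 16 lower members, whose differences the choice held near 0.

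Scaling moved the median ratio between the doses the same way in both lists and in all rows. With CPM by feature counts the median ratio of 0.25 mM to 0.1 mM was 1.04 in the higher genes, 0.971 in the lower genes and 0.937 in all 8158 rows. Divided by library sizes scaled with TMM factors, which edgeR uses to offset a few abundant transcripts, the same medians were 1.10, 1.02 and 0.985. The median of the lower genes thus lay below 1 with feature counts and above 1 with TMM, while all rows moved up as well. Relative to control, TMM scaling moved the median of all rows at 0.25 mM to -0.04 on the log2 scale, from -0.11 with feature counts. Of the 82 higher members, 59 met the rule with TMM-scaled values and 22 were more than 15% higher at 0.25 mM than at 0.1 mM. Of the 16 lower members, 12 met it, and in the other 4 the quercetin and control libraries overlapped.

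The 3 libraries of the 0.25 mM diet did not contribute alike. In the higher genes the median ratio to the 0.1 mM mean was 0.929 in library a, 1.07 in b and 1.09 in c, and b and c were both above a in 58 of 82 genes, or 70.7%, beside 43.5% of all rows. With b and c alone the median ratio of the 0.25 mM mean was 1.53 to control and 1.09 to 0.1 mM in the higher genes, and 0.714 and 0.983 in the lower genes. A value below the window occurred in 18 genes in library a, and a value above it in 28 genes in b and 25 in c. A value within the window occurred in 75.6%, 59.8% and 63.4% of the higher genes in a, b and c, beside 77.5%, 37.8% and 40.5% of all rows. The choice bounded the mean of these libraries, so part of these shares is built in. All 3 libraries lay within the window in 27 of the 82, a count for which no share of all rows was taken. With library a left out of the fit, 24 of the higher members passed between the doses in edgeR, 23 of them higher at 0.25 mM beside 21.4% of all genes, and none of the lower members beside 24.9% of all genes called lower. The exception was GB51683-RA, lower by a log2 value of -0.20 ± 0.05 (± SE, adjusted p = 0.0157). These 24 calls were made without library a and not with it. In the lower genes the medians were 0.953, 1.02 and 0.968 in a, b and c, without such an order, and 4 of the 16 had all 3 libraries within the window. Within the 0.1 mM diet, library 3 was the highest in 61 of the 82 higher genes, or 74.4%, beside 62.0% of all rows.

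**Figure D5:**
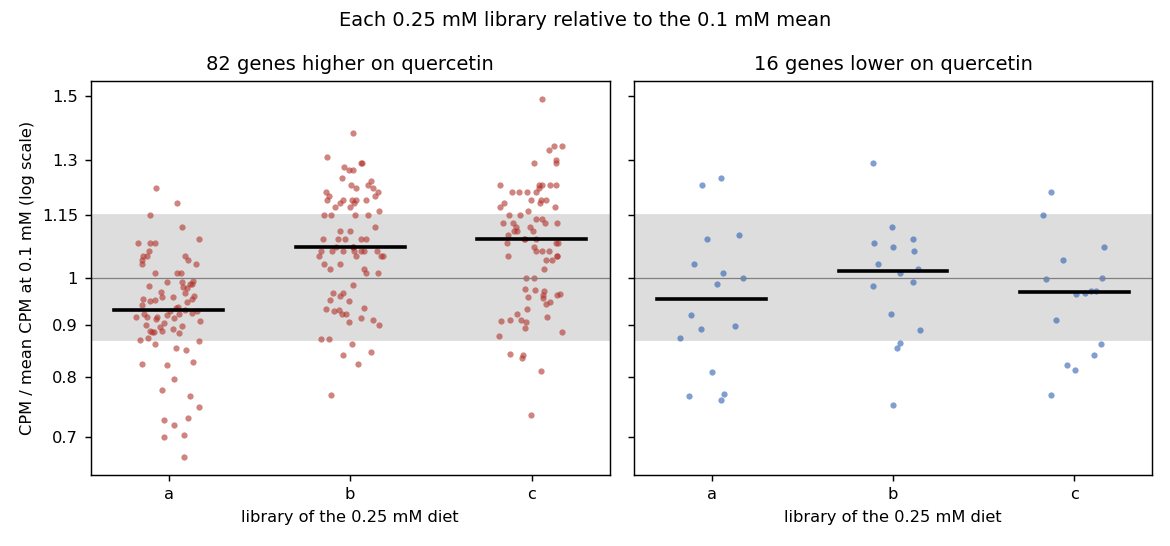
Ratio of each 0.25 mM library to the 0.1 mM mean for every member (points, log scale), with the median as a bar and the window shaded. In the higher genes library a sits lower, with a median of 0.929, than b and c, with 1.07 and 1.09; in the lower genes the 3 medians lie between 0.953 and 1.02.

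Among the values, the one measure that a choice does not use is a library kept out of it. Each quercetin library was left out in turn, the rule was applied to the other 8, and the genes so chosen were looked up in the library left out, with no test. For higher genes, 54 to 148 were chosen, and the share whose value in the left-out library was above all 3 controls was 94.4% for 0.1 mM library 3, 90.7% for library 2 and 74.3% for library 1. All rows had 38.4%, 21.1% and 19.0% in these libraries. For libraries a, b and c of the 0.25 mM diet it was 88.4%, 97.0% and 95.8%, against 18%, 33.8% and 31.6% of all rows. For lower genes, 14 to 37 were chosen, and the share below all controls was 88.2%, 51.4% and 65.6% for 0.1 mM libraries 1, 2 and 3, against 43%, 40.3% and 27.8% of all rows. It was 93.8%, 85.7% and 95.7% for libraries a, b and c, against 56.5%, 52.5% and 53.7%. The same 3 controls served for the choice and for the lookup, so part of each share is built in. All rows, unlike these lists, were not chosen for separation in the other libraries.

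Closeness of the doses was looked up in the same way. Of the higher genes chosen without library a, 60.9% had a value in library a within the window of the 0.1 mM mean, against 77.5% of all rows. Without b it was 40.0% against 37.8%, and without c 51.0% against 40.5%. The held-out library stood at a median of 0.914 of the 0.1 mM mean for a, 1.148 for b and 1.11 for c. For lower genes the shares were 50.0%, 50.0% and 39.1% in a, b and c, against 77.5%, 37.8% and 40.5% of all rows. These shares of 39.1% to 60.9% stood beside 37.8% to 77.5% of all rows, and nothing about the members is read from them.

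The number of members changed with single libraries. The 82 higher members were 137 without control 1, 148 without 0.1 mM library 1 and 54 without 0.1 mM library 3, of which 76, 70 and 46 were among the 82. Without library a 69 genes met the rule, 58 of them among the 82. The 16 lower members were 29 without control 1, 37 without 0.1 mM library 2 and 32 without 0.1 mM library 3, with 14, 13 and 12 of the 16 among them. Without library a there were 16, of which 14 were the same genes.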

How the data were processed

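The deposited table holds whole-number counts that the authors left unnormalised, for 15314 features. Its 5 bookkeeping lines were left out everywhere, so that 65.6% to 66.7% of the reads in a column entered. The submitters' processing notes list CASAVA 1.8, HTSeq and edgeR, with no role for any. No aligner, build, annotation or strand setting was found in the labels or the table. Headings gave each column's diet, and for 0.25 mM no replicate.

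CPM and the rule were computed in Python 3.11.15 with pandas 2.3.3. R 4.3.3 and edgeR 4.0.16 gave the fit (filterByExpr, TMM, glmQLFit, glmQLFTest, 1 coefficient per diet, 6 residual degrees of freedom, Benjamini-Hochberg over 11508 genes, intervals with 6 degrees of freedom). It was tried on counts simulated from its own means and spreads. That checks the code and not how well the model describes these libraries. DESeq2 1.42.0 was an alternative. Members and lists were chosen with earlier results of these data known. By a fixed rule, 2 genes per direction are named, the largest change at 0.1 mM and the highest mean CPM; the others were named after their values were seen. Planned lists of detoxification, immune, nutrition and tissue marker genes could not be evaluated, since 0 identifiers matched. Intervals cover only the spread between libraries.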

Additional observations from a re-analysis of the deposited data

How the results depend on the processing

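Of 79 alternative counts, 48 stayed within 1.5 times the value reported. The 48 include settings between the doses in which the count stayed 0 and 0% of all genes were called, which say nothing about stability. Of 640 log2 values of named genes, 639 moved by less than the spread between replicates. Leaving out 1 of 3 libraries can hardly move a mean by more than that spread, so little is read from this. Stricter or looser limits moved the lists by construction: a 0.1 mM ratio of 1.5 gave 26 higher and 3 lower members, a window of 5% to either side gave 28 and 4, a window of 20% below to 25% above gave 32 lower, and a minimum mean of 1 or 20 CPM gave 28 or 7 lower. In a setting chosen after seeing the data, which left out b and c together, 136 higher and 38 lower genes met the rule. Leaving out 1 library gave 54 to 148 higher and 14 to 37 lower members. It gave 0 to 44 members called at 0.1 mM, beside 0% to 0.966% of all genes. Between the doses it gave 0 to 24, beside 0% to 46.3% of all genes. The cause was not tested. Members called at 0.1 mM were 14 at an adjusted p of 0.1, 15 with only the 6 libraries compared and 58 in DESeq2, beside 0.243%, 0.335% and 1.45% of all genes. Those called between the doses were 5 at an adjusted p of 0.1 and 2 in DESeq2, which is 5.10% and 2.04% of members beside 21.1% and 19.4% of all genes.

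The replicate numbers of control and 0.1 mM were not shown to pair libraries: deviations of same-numbered libraries correlated at -0.246, 0.089 and -0.208 across genes. No control library correlated best with its own number, and of the 0.1 mM libraries only library 2 did. The highest value, 0.402, was between control 1 and 0.1 mM library 3. With the replicate block, 11 members were called at 0.1 mM, beside 0.203% of all genes. The 0.25 mM columns carry no usable number and were not blocked.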
